A study of Mus musculus with 6 samples.

Results

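The genes described here encode axon guidance ligands and their receptors: the semaphorins of classes 3 to 7, ephrins, Slits and netrins, and the plexins, neuropilins, Eph receptors, Robo receptors, Unc5 receptors and Dcc. They were chosen by gene symbol, with earlier results of these data already known. Of the 24421 genes counted, 69 matched, 35 ligands and 34 receptors. The 6 RNA libraries came from primary neural stem cells taken from C57BL/6 mice at postnatal day 60. Their source was the subventricular zone, the region beside the lateral ventricle that goes on producing neurons in the adult. All cells were cultured in EGF and FGF2, each at 20 ng/ml. For 3 days they received either 20 µM PluriSIn#2, which the submitters call a topoisomerase IIA inhibitor (3 libraries), or DMSO, the control (3 libraries). The treatment field of treated replicates 2 and 3 names PluriSIn with other numbers than their titles do, and the titles were used for grouping. Whether the replicates were grown apart is not said in the labels, and the p-values therefore rest on library-to-library variation that may be technical in origin.

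Guidance ligands tell a growing axon or a migrating cell where to go, mostly by attracting or repelling it. Semaphorins bind plexins, and most secreted class 3 members do so together with a neuropilin as co-receptor. Ephrins are held in the membrane and bind Eph receptor tyrosine kinases on the neighbouring cell, with signals passing both ways. Slits bind Robo receptors, and netrins bind Dcc, which can attract, and Unc5 receptors, which repel. In the subventricular zone the same families are known from the chain migration of neuroblasts towards the olfactory bulb and from contact between stem cells and their neighbours.

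Total counts per library ran from 16670962 to 19241869, and the guidance genes together took between 0.338% and 0.367% of them. All 10 markers of neural stem and progenitor cells had reads. Of these 8 fell and 2 rose, with a summed level of 6393 to 6521 CPM (normalised read counts on a common library size) in DMSO and 4749 to 4833 CPM in PluriSIn#2. Markers of dividing cells, all 8 of which fell, summed to between 3493 and 3553 CPM in DMSO and between 97.8 and 107 CPM in PluriSIn#2, with Mki67, the Ki-67 antigen, the most abundant at 1020 and 3.19 CPM. Markers of other cells moved too. Macrophage markers (12 of 13 tested higher, Lyz2 the most abundant) went from at most 10.02 to at least 199.6 CPM in sum, endothelial markers (8 of 10 higher, Cdh5) from at most 11.1 to at least 39.0 CPM, pericyte and fibroblast markers (8 of 11 higher and 2 lower, Cspg4) from at most 245.7 to at least 328.8 CPM, and choroid plexus markers (6 of 6 higher, Ttr) from at most 14.0 to at least 524 CPM. In the pericyte and fibroblast list Cspg4 (149 to 86.1 CPM) and Pdgfra (56.9 to 4.91 CPM), which the list of oligodendrocyte precursors also holds, fell, while Col3a1 rose from 0.629 to 61.5 CPM. Ependymal markers (9 of 9 higher, Foxj1) rose from at most 47.1 to at least 177 CPM and those of astrocytes and quiescent stem cells (10 of 10 higher, Slc1a3) from at most 3836 to at least 7043 CPM. Oligodendrocyte precursor markers (9 of 10 lower, Ptprz1 the most abundant and higher) had 5740 to 5836 CPM in DMSO and 5288 to 5389 CPM in PluriSIn#2. Neuronal markers had 10 of 14 higher and 2 lower (Map2 the most abundant), at 1203 to 1265 and 758 to 766 CPM. Of all genes tested, 41.7% were higher and 40.9% lower. No listed marker was at 0 in every library, and Trem2, of macrophages, was at 0 in DMSO. Of the macrophage markers tested, only Lyz2, Cd68 and P2ry12 averaged above the filter minimum of 0.555 CPM in DMSO, and P2ry12 was not called. The other macrophage markers averaged under it. So did Cdh5, Cldn5, Tie1, Clic6, Folr1, Kl, Dcn and Lum, among others. Such markers passed the filter through the treated libraries and could hardly be called lower, so their calls carry little weight. The part of these other cells in the changes of guidance genes was not tested, and in bulk RNA fewer cells of a type and less RNA per cell cannot be told apart.

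In PluriSIn#2, more guidance genes were higher than lower, and semaphorins, Slits, netrins, plexins, EphA, EphB and netrin receptors each held members that rose and members that fell. Of the 65 members that passed the filter on low counts, 36 rose and 18 fell (edgeR's quasi-likelihood test, adjusted p under 0.05), and 11 were not called. The called share of 83.1% compares with 82.6% of all 14417 genes tested, so that being called does not set these genes apart. Higher members made up 55.4% of those tested against 41.7% of all genes, and lower members 27.7% against 40.9%. The median log2 fold change of the tested members was 0.41, beside 0.01 for all genes tested. Because the members were chosen with earlier results of these data known, such shares and medians are descriptions only. At 2-fold or more, 15 members rose (23.1%, against 16.3% of all genes) and 8 fell (12.3%, against 11.7%). Sema3g and Epha8 are among these 15 and among the 36, although they passed the filter only through the treated libraries. Of the 54 called members, 53 had in the authors' deposited table the same direction and an adjusted p under 0.05, with Efna1 the exception. The values of the 3 DMSO and the 3 treated libraries did not overlap for 56 members (86.2%, against 82.7% of all genes). The summed level of all members overlapped between groups, at 3465 to 3571 CPM in DMSO and 3544 to 3575 CPM in PluriSIn#2. Among the 18 members averaging at least 50 CPM, 8 rose and 9 fell. The shares of all genes given above cover genes of every level, and none was counted at this level alone.

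**Figure D1:**
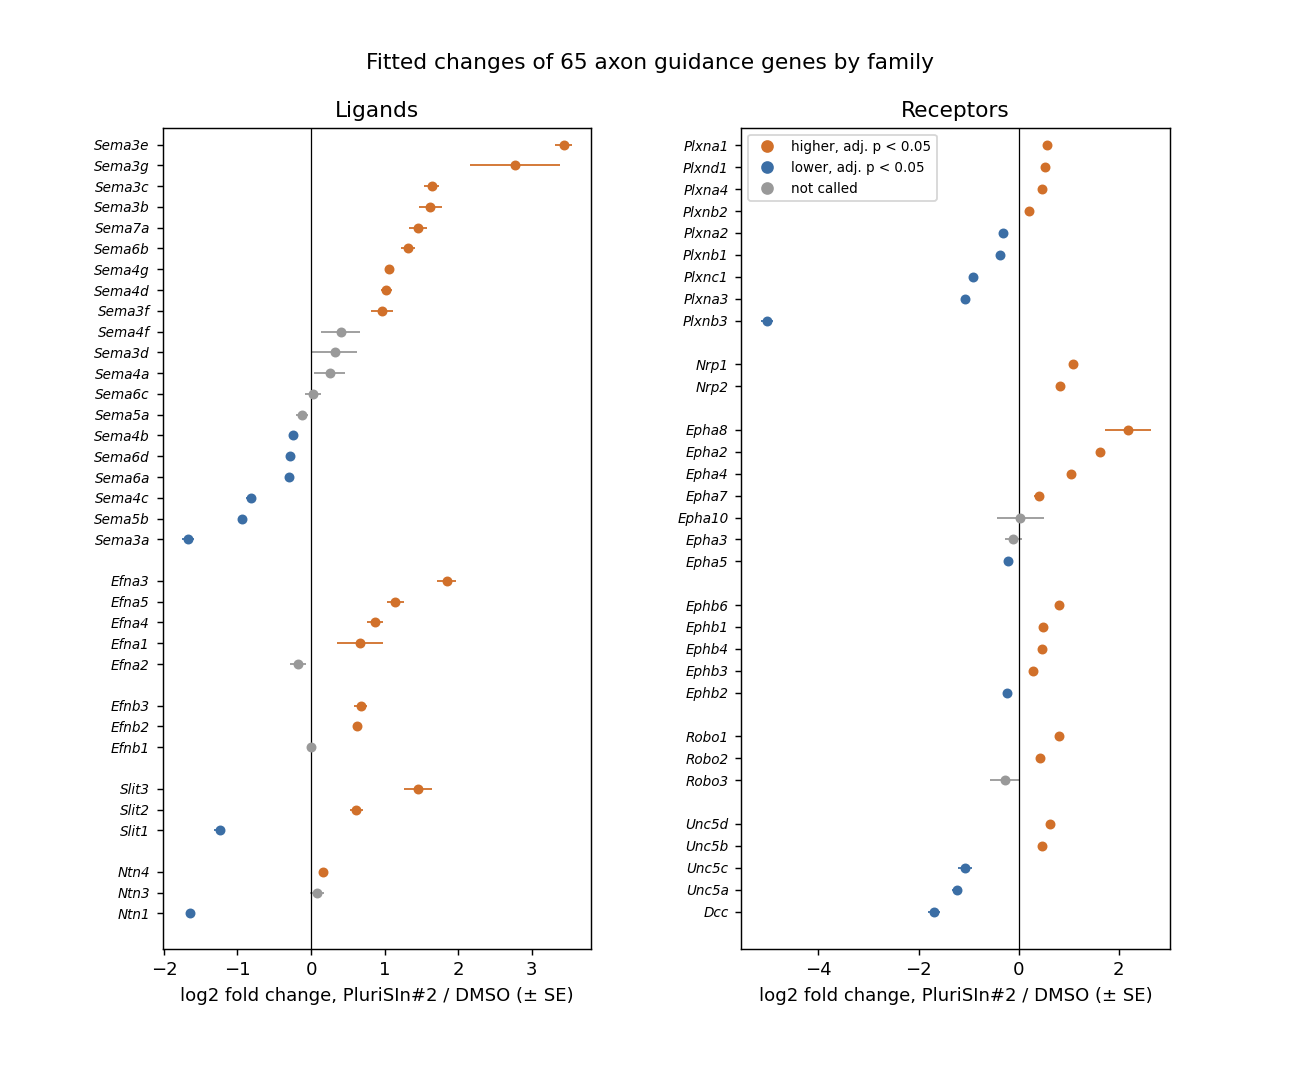
Fitted log2 fold change of PluriSIn#2 over DMSO (x axis, with standard error bars) for the 65 tested members, listed by family, ligands on the left and receptors on the right (the x axes differ in range). Orange points were called higher, blue points lower and grey points not called; Sema3e at 3.43 and Plxnb3 at -5.03 lie at the extremes.

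Semaphorins were the largest family here, and classes 3, 4 and 6 each held members that rose and members that fell. Of 20 tested, 9 rose, 6 fell and 5 were not called, and the median was 0.36 on the log2 scale. The called share was 75%, beside 82.6% of all genes tested (41.7% higher and 40.9% lower). Class 3 semaphorins are secreted and mostly repel axons, and 5 of the 7 rose (85.7% of the class was called). Sema3e, which binds Plxnd1 without needing a neuropilin, changed most. Its level was 2.52, 2.31 and 3.09 CPM in the DMSO libraries and 29.4, 29.3 and 27.2 CPM in the PluriSIn#2 libraries. Every treated library thus lay far above every DMSO library, a 10.8-fold rise (edgeR log2 fold change 3.43 ± 0.11 SE, adjusted p = 2.76e-46). Sema3a, the founding repellent of the class, which acts through Nrp1, went the opposite way. It stood at 32.1, 33.5 and 32.1 CPM in DMSO and 10.6, 8.99 and 11.1 CPM in PluriSIn#2 (edgeR log2 fold change -1.67 ± 0.081 SE, adjusted p = 6.36e-34). The groups did not overlap for either gene, nor for 82.7% of all genes tested.

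Sema3a and Sema3e are neighbours on mouse chromosome 5 (GRCm38, the build also called mm10, with gene spans from GENCODE). Sema3d spans 12383385 to 12588948, Sema3a 13125414 to 13602565 and Sema3e 14025276 to 14256689, all on the plus strand. Sema3d, the first of the 3, had 1.01 ± 0.0584 and 1.26 ± 0.264 CPM in DMSO and PluriSIn#2 (mean ± SD, n = 3 per group) and was not called. Because these close paralogues changed in opposite directions, the 250 bases before the RefSeq start of each are shown (GRCm38.p6, plus strand, chr5:13396534-13396783 for Sema3a and chr5:14025026-14025275 for Sema3e). Capitals mark matches, on either strand, to the letters TTTGAA, the core of the cell cycle homology region known from promoters of mitotic genes, and GGGCGG, the GC box bound by Sp1.
Sema3a: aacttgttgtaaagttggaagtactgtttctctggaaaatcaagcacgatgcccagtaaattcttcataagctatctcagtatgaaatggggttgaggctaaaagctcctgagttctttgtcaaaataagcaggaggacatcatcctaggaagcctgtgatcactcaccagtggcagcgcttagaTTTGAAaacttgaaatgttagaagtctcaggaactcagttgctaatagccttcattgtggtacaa
Sema3e: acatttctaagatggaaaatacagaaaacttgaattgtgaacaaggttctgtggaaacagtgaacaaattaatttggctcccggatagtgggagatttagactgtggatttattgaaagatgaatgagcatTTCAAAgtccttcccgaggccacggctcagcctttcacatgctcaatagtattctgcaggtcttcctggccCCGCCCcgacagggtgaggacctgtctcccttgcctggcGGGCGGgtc
Both windows hold TTTGAA on a strand. The Sema3e window also holds a pair of GC boxes, a G+C content of 48% and 7 CpG dinucleotides, against 40.8% and 2 for Sema3a. The RefSeq start of Sema3a lies inside the gene span that GENCODE gives, so a start further upstream is not covered by this window. Over all members, 59 of the 69 had a RefSeq entry, with 75 start sites. GGGCGG was found in 70.7% of these windows, in 56.6% of the windows of all tested genes and in 32.7% of all 32851 windows of the same length. By direction it was in 31 of 39 windows of members that rose and in 11 of 17 of members that fell. TTTGAA was rarer, in 3 of 39 and 3 of 17 windows, against 10.3% of the windows of tested genes and 16% of all windows. Any part of these sequences in the changes was not tested.

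The other class 3 genes that were called started low in DMSO and rose. Sema3c, which can attract axons, rose from 6.16, 7.14 and 6.50 CPM to 20.4, 22.1 and 19.2 CPM (edgeR log2 fold change 1.64 ± 0.099 SE, adjusted p = 1.6e-27). Sema3b rose from 2.02, 3.09 and 2.67 CPM to 7.56, 8.72 and 7.67 CPM (1.62, SE 0.16). Both were thus about 3 times as high, with no overlap between groups (as for 82.7% of all genes tested). Sema3f, a ligand that acts through Nrp2, rose from 3.43 ± 0.545 to 6.67 ± 0.85 CPM (log2 fold change 0.97, edgeR adjusted p = 3.25e-08). Sema3g, which endothelial cells are known to make, had 6 reads over the DMSO libraries and 42 over the treated ones. It passed the filter through the treated libraries only, so its call (2.77, SE 0.61) carries little weight. Counted per length, the order inside the class turned over. In FPKM (fragments scaled for transcript length and library total, as deposited), Sema3a led in DMSO at 4.55 ± 0.114 (SD, n = 3) with Sema3e at 0.368 ± 0.0561. In PluriSIn#2, Sema3e (4.19 ± 0.183) and Sema3c (4.17 ± 0.291) overlapped each other and Sema3a had 1.5 ± 0.161. The FPKM ratio of Sema3e to Sema3a was 0.0783, 0.0688 and 0.0962 in the DMSO libraries and 2.77, 3.25 and 2.45 in the treated ones.

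Semaphorins of classes 4 to 7, which are bound to the membrane, all changed by less than Sema3e did. Sema4d, a ligand of Plxnb1 also known from immune cells, rose from 16.3, 14.5 and 16.3 CPM to 30.1, 32.0 and 33.5 CPM (edgeR log2 fold change 1.02 ± 0.074 SE, adjusted p = 6.73e-23). Sema4g rose from 26.9, 25.2 and 25.5 CPM to 52.7, 54.5 and 54.5 CPM (1.06). Macrophage markers, given above, were higher in the same libraries as Sema4d, and their part was not tested. Sema6b rose from 9.46, 9.56 and 7.68 CPM to 21.4, 22.2 and 22.8 CPM (1.32). Sema7a, a semaphorin held in the membrane by a lipid anchor, rose from 5.43, 3.77 and 4.43 CPM to 11.7, 12.6 and 13.2 CPM (1.46). In each of these 4 genes the lowest treated library was above the highest DMSO library. Groups without overlap, in either direction, were found for 82.7% of all genes tested.

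The 4 semaphorins averaging over 50 CPM (Sema6d, Sema6a, Sema5b and Sema4b) and the less abundant Sema4c fell. Sema6d, the most abundant semaphorin and a ligand of Plxna1, moved from 347.8, 353.1 and 352.7 CPM to 290.5, 286.3 and 284.7 CPM, a small fall outside the spread of replicates (edgeR log2 fold change -0.29 ± 0.025 SE, adjusted p = 1.51e-18). Sema5b fell from 156 ± 3.62 to 80.8 ± 1.33 CPM (-0.94), Sema4c from 33.8 ± 1.9 to 19.1 ± 1.25 CPM (-0.82), Sema6a from 145 ± 2.4 to 118 ± 1.36 CPM (-0.30) and Sema4b from 118 ± 1.9 to 100.2 ± 2.92 CPM (-0.24). Since these genes carry most of the family's reads, the summed level of semaphorins was lower in PluriSIn#2 (831 to 840 CPM) than in DMSO (934 to 949 CPM) although more members rose than fell. Not called were Sema3d, Sema4a (2.35 and 2.8 CPM), Sema4f (1.38 and 1.82 CPM), Sema5a (19.7 and 18.1 CPM) and Sema6c (log2 fold change 0.03).

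Ephrins rose or were not called. A ephrins are tied to the membrane by a lipid anchor, and 4 of 5 rose (80% called, beside 82.6% of all genes tested). Efna3 rose from 3.47, 3.71 and 3.41 CPM to 11.96, 12.4 and 13.8 CPM (edgeR log2 fold change 1.85 ± 0.13 SE, adjusted p = 7.84e-24), and Efna5 from 6.27, 5.68 and 5.23 CPM to 11.4, 12.8 and 13.7 CPM (1.14, SE 0.12). Efna4, with the highest CPM averaged over both groups, rose from 6.89, 6.69 and 7.68 CPM to 13.0, 13.2 and 12.8 CPM (0.87). None of these 3 overlapped between groups, which held for 82.7% of all genes tested. Efna1 lay just past the threshold, with 47 reads over the DMSO and 73 over the treated libraries (0.67 ± 0.32 SE, edgeR adjusted p = 0.0456), and DESeq2 did not call it (adjusted p = 0.121), nor did the authors' deposited table (adjusted p = 0.167). Efna2 was not called (10.2 ± 0.808 and 8.996 ± 1.11 CPM).

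Efna1, Efna3 and Efna4 form a cluster on chromosome 3, on the minus strand. Efna1 spans 89271733 to 89281142, Efna3 89313899 to 89322965 and Efna4 89333390 to 89338028 (GRCm38). No source used here says if reads were counted by strand. Antisense transcripts overlap 14.1% of the exonic bases of Efna3 (Gm15998) and 10.5% of those of Efna4 (4731419I09Rik), and reads from them could be mixed in. In FPKM the A ephrin with the highest mean changed from Efna2 (4.6 ± 0.368 in DMSO) to Efna3 (10.4 ± 0.796 in PluriSIn#2). In DMSO, Efna2 overlapped Efna4 (4.25 ± 0.306). The ratio of Efna3 to Efna2 was 0.65, 0.598 and 0.56 in DMSO and 2.6, 2.11 and 2.74 in PluriSIn#2.

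B ephrins span the membrane and can signal into the cell that carries them. Efnb2, the ligand of Ephb4 with the highest CPM averaged over both groups, rose from 65.8, 62.4 and 63.6 CPM to 98.2, 95.1 and 102.9 CPM (edgeR log2 fold change 0.63 ± 0.042 SE, adjusted p = 5.48e-25) and Efnb3 from 12.5 ± 0.25 to 20.0 ± 0.191 CPM (0.67). Efnb1, which per length was above Efnb2 in DMSO (22.8 against 14.2 FPKM) and overlapped it in PluriSIn#2, had 80.0, 80.8 and 79.0 CPM in DMSO and 79.5, 82.2 and 78.9 CPM in PluriSIn#2. Its groups overlapped fully, and it was not called (edgeR adjusted p = 0.903), although with upper-quartile scaling it was called higher (0.11, edgeR adjusted p = 0.00927).

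Of the Slits, the large secreted ligands of Robo receptors, the most abundant in DMSO fell and the others rose. Slit1 fell from 32.3, 29.6 and 30.5 CPM to 13.6, 12.2 and 13.3 CPM (edgeR log2 fold change -1.24 ± 0.077 SE, adjusted p = 8.42e-27). Slit2 rose from 10.7 ± 0.285 to 16.4 ± 1.04 CPM (0.62), and Slit3 from 1.72 ± 0.236 to 4.75 ± 0.257 CPM (1.46, SE 0.19, on 94 and 252 reads). All 3 were without overlap between groups, like 82.7% of all genes tested. The FPKM ratio of Slit2 to Slit1 went from 0.207, 0.224 and 0.209 to 0.762, 0.767 and 0.788, so Slit1 led in both groups. Slit reads in sum were lower in PluriSIn#2 (32.1 to 35.6 CPM) than in DMSO (42.0 to 45.0 CPM).

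Netrins are laminin-like secreted proteins, of which Ntn1 is the classical attractant and Ntn4 is also a component of basement membranes. Ntn1 was among the most abundant guidance ligands in DMSO and fell about 3-fold, from 232, 224 and 222 CPM to 75.1, 68.7 and 73.6 CPM (edgeR log2 fold change -1.64 ± 0.035 SE, adjusted p = 9.94e-61). Ntn4 rose slightly, from 71.6 ± 3.46 to 80.0 ± 1.88 CPM (0.16 ± 0.043 SE, edgeR adjusted p = 0.000403). Per length the leading netrin therefore changed. The FPKM ratio of Ntn4 to Ntn1 was 0.777, 0.74 and 0.747 in DMSO and 2.54, 2.83 and 2.52 in PluriSIn#2. Ntn3 was not called (10.8 and 11.4 CPM), and Ntn5, with 5 reads over the DMSO and 13 over the treated libraries, was not tested.

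**Figure D2:**
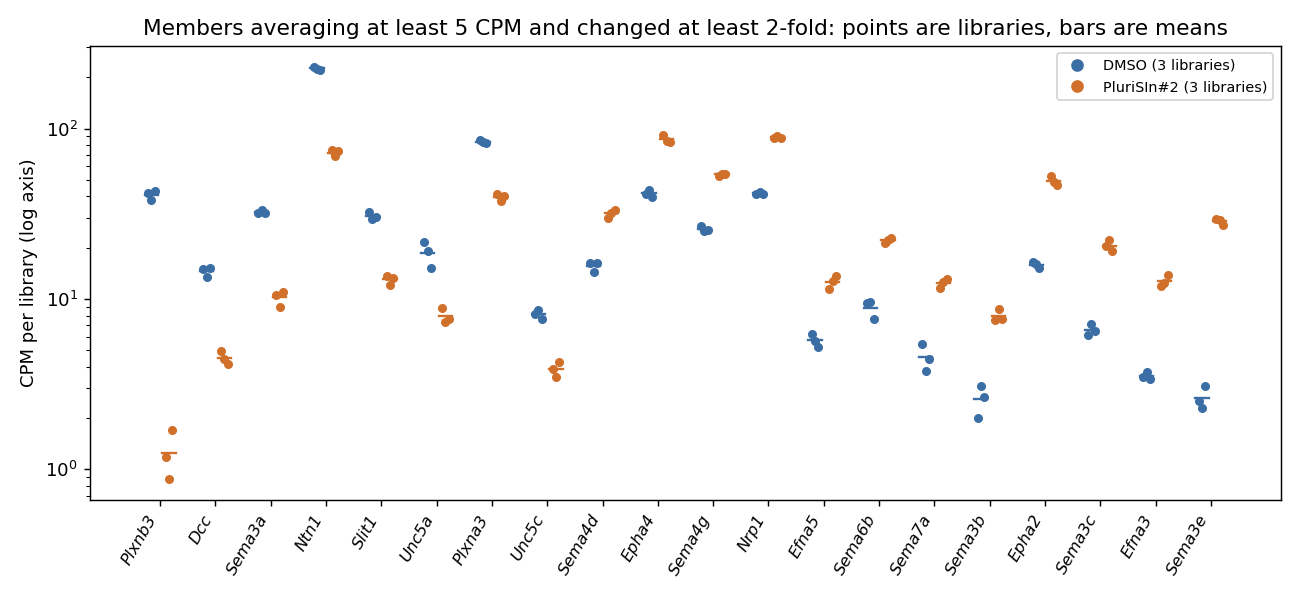
CPM in each library (y axis, log scale) for the 20 members that averaged at least 5 CPM and were called at 2-fold or more, ordered by fold change; blue points are the 3 DMSO libraries, orange points the 3 PluriSIn#2 libraries and short bars their means. In all 20 genes, 8 lower and 12 higher, the points of the 2 groups do not overlap, which their choice by call and fold change makes likely. Of all genes tested, 82.7% did not overlap.

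Receptors of netrins changed with Ntn1 in part. Dcc, a receptor through which netrin attracts, fell from 15.1, 13.4 and 15.2 CPM to 4.96, 4.44 and 4.16 CPM (edgeR log2 fold change -1.69 ± 0.12 SE, adjusted p = 8.53e-24). The repellent receptor genes Unc5a (21.5, 19.1 and 15.2 CPM to 8.91, 7.29 and 7.61 CPM, -1.23) and Unc5c (8.18, 8.66 and 7.68 CPM to 3.89, 3.51 and 4.27 CPM, -1.07) fell as well. The other Unc5 genes went up. Unc5b, the most abundant of the family by reads, rose from 35.6, 34.5 and 32.8 CPM to 49.7, 48.0 and 44.6 CPM (0.47 ± 0.056 SE, edgeR adjusted p = 2.79e-12), and Unc5d from 12.6 ± 1 to 19.6 ± 1.1 CPM (0.63). In sum Dcc and the Unc5 genes overlapped between groups, at 84.7 to 92.1 CPM in DMSO and 79.7 to 86.3 CPM in PluriSIn#2. This sum leaves out 2 genes listed with the co-receptors below. Dscam, a further netrin receptor, fell from 64.5 to 13.5 CPM, and Neo1 was not called (200 and 205 CPM).

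Plexins, the signalling receptors of semaphorins, were called in all 9 cases, 4 higher and 5 lower, where 82.6% of all genes tested were called. Plxnb3 fell most of all guidance genes. It had 41.8, 38.2 and 42.8 CPM in DMSO and 1.18, 0.877 and 1.7 CPM in PluriSIn#2, 2228 reads against 66 over 3 libraries. The fall was 32.7-fold (edgeR log2 fold change -5.03 ± 0.12 SE, adjusted p = 3.89e-56), whereas its ligand gene Sema5a was not called. Plexin-B3 is known from oligodendrocytes, and 9 of the 10 markers of oligodendrocyte precursors were lower in the same libraries. Gpr17 (33.2 to 0.13 CPM), Sox10 (24.3 to 0.883 CPM), Bcas1 (28.2 to 1.27 CPM), Pdgfra and Lhfpl3 (27.4 to 3.59 CPM) fell by more than 2-fold. Nkx2-2 (17.8 to 9.17 CPM), Cspg4, Olig2 (956 to 638 CPM) and Olig1 (1737 to 1655 CPM) fell by less, and Ptprz1 rose (2770 to 2931 CPM). Their part in the fall of Plxnb3 was not tested.

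The remaining plexins changed by about 2-fold or less. Plxna3 fell from 85.9, 83.2 and 82.2 CPM to 41.2, 37.7 and 40.2 CPM (edgeR log2 fold change -1.08 ± 0.047 SE, adjusted p = 9.07e-37). Plxnc1, the receptor of Sema7a, fell from 42.5 ± 1.17 to 22.6 ± 1.71 CPM (-0.91), while Sema7a itself rose. Plxnb1, the receptor of Sema4d, fell from 273 ± 7.56 to 209 ± 5.25 CPM (-0.38) and Plxna2 from 196 ± 5.53 to 158 ± 2.62 CPM (-0.31). Plxna1, a partner of neuropilins and Sema6d, rose from 240.4 ± 7.72 to 356 ± 0.593 CPM (0.57, SE 0.026), though an antisense transcript, Gm26811, overlaps 10.7% of its exonic bases. Plxnd1, the receptor of Sema3e, rose from 71.3 ± 2.86 to 103 ± 1.75 CPM (0.53) in the same direction as its ligand, and Plxna4 from 16.2 ± 0.178 to 22.3 ± 0.988 CPM (0.46). Plxnb2, which had the highest level of all members, had 575, 571 and 552 CPM in DMSO and 650.4, 652 and 651 CPM in PluriSIn#2, a rise of 0.20 on the log2 scale (SE 0.022, edgeR adjusted p = 3.93e-14).

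Both neuropilins, the co-receptors that bind class 3 semaphorins and also VEGF, rose. Nrp1 rose from 41.1, 42.6 and 41.5 CPM to 88.2, 90.8 and 88.2 CPM (edgeR log2 fold change 1.09 ± 0.046 SE, adjusted p = 2.05e-38), and Nrp2 from 20.0 ± 1.33 to 35.7 ± 2.16 CPM (0.84, SE 0.068). In sum they went from between 60.2 and 64.0 CPM to between 121 and 128 CPM, with no overlap. Nrp1 is also expressed by endothelial cells, whose markers summed to 39.0 to 42.5 CPM in the treated libraries, and their part was not tested.

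Eph receptors of the A class mostly rose or were not called. Epha2, a receptor best known from epithelia, rose from 16.4, 16.03 and 15.2 CPM to 52.5, 48.7 and 46.8 CPM (edgeR log2 fold change 1.64 ± 0.066 SE, adjusted p = 1.62e-39). Epha4, which binds A and B ephrins and is known from astrocytes and neural stem cells, rose from 41.6, 43.5 and 39.9 CPM to 91.4, 84.8 and 83.2 CPM (1.05, SE 0.047). Epha5, the most abundant in DMSO, fell slightly, from 77.6, 75.3 and 81.5 CPM to 66.2, 67.5 and 68.0 CPM (-0.22 ± 0.043 SE, edgeR adjusted p = 4.44e-06). The EphA receptor with the highest mean FPKM thus differed between groups. The FPKM ratio of Epha4 to Epha5 was 0.66, 0.712 and 0.602 in DMSO and 1.7, 1.54 and 1.5 in PluriSIn#2. In PluriSIn#2, Epha4 (13.7 ± 0.706 FPKM) overlapped Epha2 (12.6 ± 0.746 FPKM). Epha7 rose from 11.8 ± 2.52 to 15.7 ± 0.926 CPM (0.41). Epha8 rose on 13 and 59 reads (2.19, SE 0.45), but like Sema3g it passed the filter only through the treated libraries. Epha3 (4.26 and 3.96 CPM) and Epha10 (0.499 and 0.512 CPM) were not called. Epha1 (27 reads over the DMSO and 37 over the treated libraries) and Epha6 (7 and 19 reads) were not tested.

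All 5 EphB receptors were called, where 82.6% of all genes tested were called. Ephb6, whose kinase is inactive, rose from 16.7 ± 1.47 to 29.2 ± 0.674 CPM (edgeR log2 fold change 0.80 ± 0.074 SE), Ephb1 from 15.7 ± 1.27 to 22.1 ± 2.38 CPM (0.49) and Ephb4, the receptor of Efnb2, from 27.9 ± 1.51 to 38.4 ± 1.5 CPM (0.46). Ephb3, the most abundant by reads, moved from 45.4, 39.0 and 36.4 CPM to 50.02, 48.5 and 48.8 CPM (0.29 ± 0.056 SE, edgeR adjusted p = 3.12e-06). Its groups stayed apart although DMSO replicate 1 came near the treated libraries. Ephb2 fell slightly, from 29.2 ± 0.332 to 24.7 ± 1.82 CPM (-0.24, edgeR adjusted p = 0.000906), and upper-quartile scaling ended that call (-0.13, edgeR adjusted p = 0.0635).

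Robo receptors rose where they were abundant. Robo1 rose from 35.6 ± 0.994 to 62.6 ± 1.86 CPM (edgeR log2 fold change 0.82 ± 0.051 SE, adjusted p = 2.5e-26). Robo2, above Robo1 in DMSO and below it in PluriSIn#2 by mean CPM, had 44.6, 43.5 and 42.1 CPM in DMSO and 59.0, 55.7 and 59.5 CPM in PluriSIn#2 (0.42, SE 0.05). Robo3, known from commissural axons, was not called (1.41 and 1.18 CPM), and the endothelial Robo4, its neighbour on chromosome 9, had 16 reads over the DMSO and 38 over the treated libraries and was not tested. Slit1 fell while these abundant receptors rose.

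**Figure D3:**
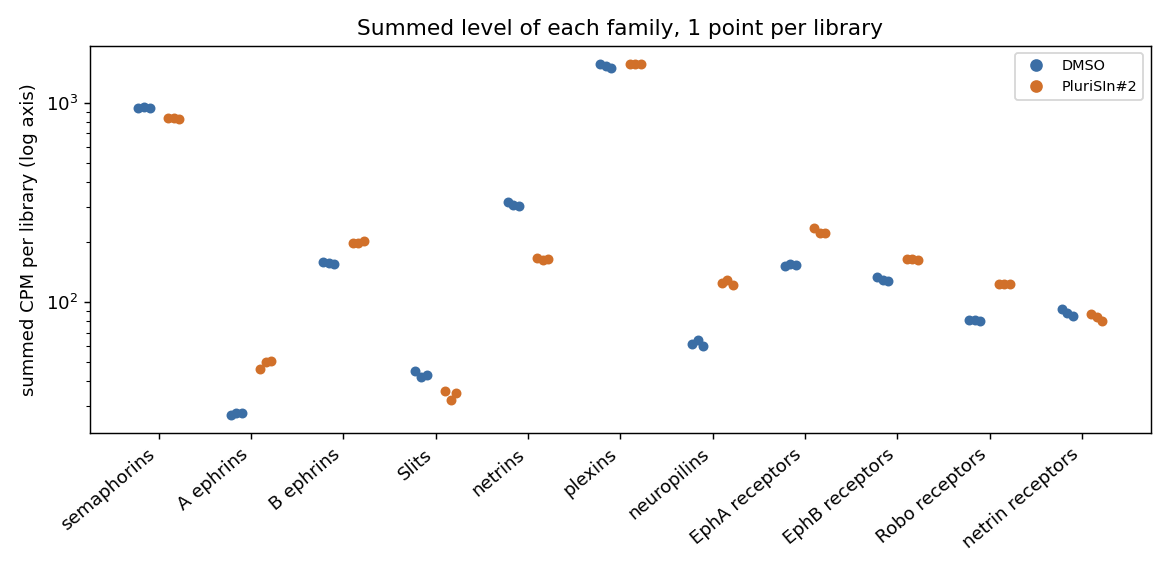
Summed CPM of each family in each library (y axis, log scale; 1 point per library, blue DMSO and orange PluriSIn#2). Neuropilins, A ephrins, EphA, EphB and Robo receptors and B ephrins sum higher in all 3 treated libraries. Semaphorins, Slits and netrins sum lower, and the plexins and netrin receptors (here Dcc and the Unc5 genes) overlap.

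Levels were also compared per length. In DMSO the order by FPKM began with Plxnb2 (83.1 ± 1.84), Sema6d (51.7 ± 0.429), Ntn1 (37.7 ± 0.868), Sema5b (32.7 ± 0.809) and Plxnb1 (30.3 ± 0.84), each apart from the next in every library. Sema4b (28.7 ± 0.485) and Ntn4 (28.4 ± 1.38) followed and overlapped. In PluriSIn#2 the order was Plxnb2 (100.3 ± 0.0493), Sema6d (44.3 ± 0.501), Plxna1 (39.6 ± 0.023), Ntn4 (33.3 ± 0.771) and Sema4b (25.5 ± 0.72), again each apart from the next. Plxnb1 (24.4 ± 0.603) and Efnb1 (24.0 ± 0.502) overlapped there, as did Efnb1 and Efnb2. Ntn1 dropped from the third to the fifteenth place, where it overlapped Epha2 (12.6 ± 0.746). An exact permutation test was run on the FPKM ratios given above (Sema3e to Sema3a, Efna3 to Efna2, Slit2 to Slit1, Ntn4 to Ntn1 and Epha4 to Epha5). It was also run on Plxna1 to Plxnb1 (0.839, 0.864 and 0.818 in DMSO, and 1.61, 1.58 and 1.66 in PluriSIn#2). The permutation test gave p = 0.1 for each pair, two-sided, the smallest that 3 against 3 libraries can give. All these pairs were chosen after their values were seen.

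**Figure D4:**
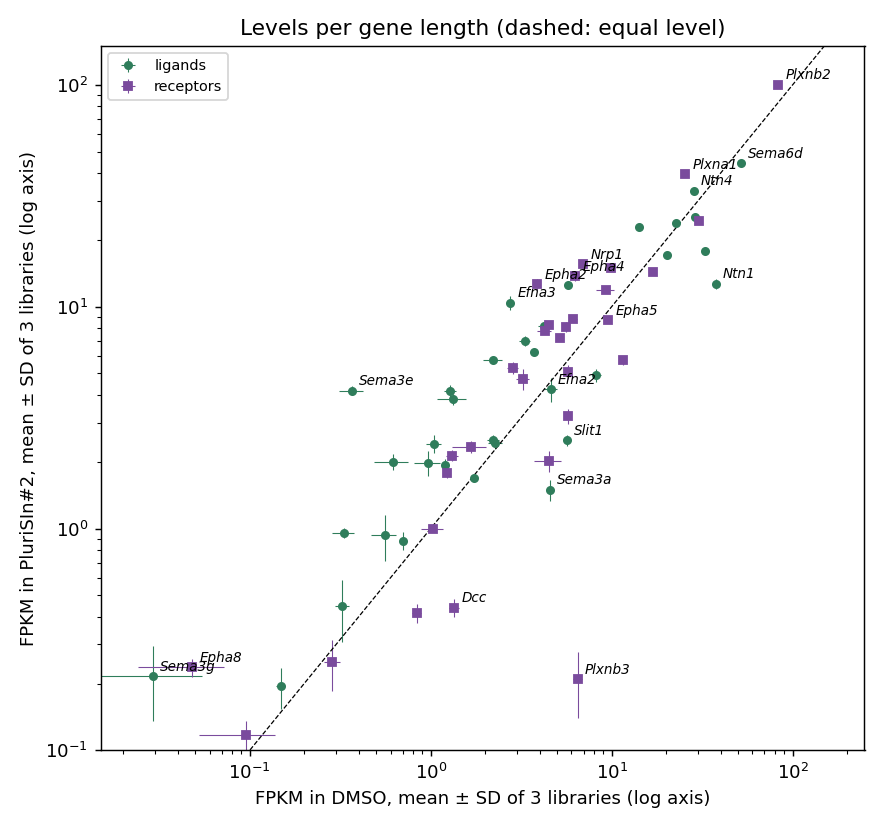
Mean FPKM of the 65 tested members in DMSO (x axis) and PluriSIn#2 (y axis), both log scales, with SD bars over 3 libraries; circles are ligands, squares receptors, and the dashed line marks equal levels. Plxnb2 is highest in both groups, Sema3e and Efna3 lie above the line, and Plxnb3, Ntn1, Sema3a and Dcc lie below it.

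Known partners changed together in some pairs and apart in others. Sema3e and Plxnd1 both rose, as did Efnb2 and Ephb4, and Ntn1 and Dcc both fell. In contrast, Sema4d rose while Plxnb1 fell, Sema7a rose while Plxnc1 fell, and Sema3a fell while Nrp1 rose. No test compared partners with other pairs of genes. Across the 65 tested members the log2 fold change had a Spearman rho of -0.293 with the mean CPM and of -0.163 with the length of the gene span. Both are descriptions across genes that share the same 6 libraries, and genes are not independent replicates.

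Other genes of the pathways were taken from a pair of lists. Of 35 co-receptors and further ligands, 34 were tested. Of these 21 rose and 10 fell, and the median was 0.41 on the log2 scale. The called share was 91.2%, beside 82.6% of all genes tested (41.7% higher and 40.9% lower). Among those averaging at least 5 CPM, the adhesion gene Nfasc (53.9 to 184 CPM, log2 fold change 1.77), Islr2 (5.99 to 18.9 CPM, 1.65) and the netrin-G gene Ntng2 (4.75 to 14.3 CPM, 1.59) rose most. The largest falls were in Draxin, a secreted ligand of Dcc (41.4 to 7.2 CPM, -2.52), Dscam, a further netrin receptor (64.5 to 13.5 CPM, -2.25), and Cdon, a hedgehog co-receptor (184 to 69.0 CPM, -1.42). Neo1, Ryk and Alcam were not called, and Timd2 had no read.

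Of 57 genes that act inside the cell, 17 rose, 33 fell and 7 were not called, with a median of -0.21 on the log2 scale. The called share was 87.7%, beside the same 82.6% of all genes, and no test compared this list with other genes. Mical1, which oxidises actin downstream of semaphorins (42.9 to 11.4 CPM, log2 fold change -1.92), Trim67, which encodes a ligase that binds Dcc (24.5 to 6.54 CPM, -1.91), and the Rac inhibitor gene Chn2 (42.3 to 13.6 CPM, -1.64) fell most among those averaging at least 5 CPM. Ngef, an exchange factor bound by EphA receptors (6.08 to 17.5 CPM, 1.52), the actin-binding gene Ablim1 (20.1 to 55.0 CPM, 1.45) and Srgap3, which binds Robo receptors (173 to 303 CPM, 0.81), rose most among those averaging at least 5 CPM.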

How the data were processed

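STAR, HTSeq and DESeq, on the build mm10, are the tools named per the submitters' processing notes. No version, annotation, strand setting or filter is stated there. The deposited table of counts holds whole reads per gene symbol and library, not normalized. The FPKM table, as deposited, is scaled by the authors for length and total reads. It also holds the authors' deposited log2 fold changes and their p-values, used here only where the authors' table is named. There 25 gene names had turned into dates, none of them members.

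Counts were fitted in R 4.3.3 with edgeR 4.0.16 (filterByExpr, TMM, glmQLFit and glmQLFTest, group as the only term, two-sided, Benjamini-Hochberg over 14417 genes, threshold 0.05). CPM use TMM-scaled totals, and the standard error is the fitted log2 coefficient divided by the root of F. The script was tested on simulated data. Alternatives were DESeq2 1.42.0 and limma 3.58.1 on log2(FPKM + pseudocount), other scalings and filters, left-out libraries and a replicate block. Gene spans and overlaps came from GENCODE M21, and promoters from RefSeq. The members and lists were chosen with earlier results of these data known. Named genes were those called at 2-fold or more with a mean of at least 5 CPM and the most abundant of each family, given per library, with all other members by group. Pairs of replicates differed by more than sampling noise (chi-square per degree of freedom of at least 1.56), so none was a copy. The labels state no pairing of libraries by replicate number, and same-numbered deviations correlated at 0.0293 or less. Such correlations cannot show whether libraries shared a culture. With few reads a level is measured in coarse steps. The sources name no molecular identifiers.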

Additional observations from a re-analysis of the deposited data

How the results depend on the processing

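Every count of called members, co-receptors and effectors stayed within 1.5 times its value under each alternative fitted to the counts (with limma on FPKM, single members only were compared). Leaving out each library in turn gave 35 to 38 members higher and 18 to 19 lower, 15 to 16 higher and 7 to 8 lower at 2-fold, 20 to 21 co-receptor genes higher and 10 lower, 15 to 18 effectors higher and 32 to 33 lower, and a median log2 fold change of the tested members from 0.38 to 0.46. That median was 0.48 with library totals in place of TMM, 0.52 with upper-quartile factors (which moved the median of all genes from 0.01 to 0.12) and 0.46 without a filter on low counts, where 69 members were tested. A replicate block was also fitted, although the labels state no pairing. With it, 35 members were higher and 18 lower, and Efna1 was no longer called (edgeR adjusted p = 0.0562). With treated replicate 1 alone, whose title and treatment field name the same compound, 38 were higher and 19 lower, but that library has no replicate and is assumed to vary like the 3 DMSO libraries. Of 1038 comparisons of a single member with an alternative, 1014 kept direction and call, 7 lost the call, 5 gained it and 12 changed sign. Efna1 also lost its call without a filter (edgeR adjusted p = 0.0634), without DMSO replicate 2 (0.144) or 3 (0.0931) and without PluriSIn#2 replicate 1 (0.246). Sign changes concerned only members that were not called. Epha3 had 0.00459 with upper-quartile factors. With 1 library left out, Epha10 ran from -0.213 to 0.503, Sema6c from -0.0466 to 0.0856 and Efnb1 from -0.0114 to 0.013. With treated replicate 1 alone, Sema6c had -0.0275, Efnb1 -0.00912 and Sema3d -0.0773. Efna2 was called lower without DMSO replicate 1 (-0.25), without PluriSIn#2 replicate 2 (-0.28) and with treated replicate 1 alone (-0.35), and Sema4f higher without PluriSIn#2 replicate 3 (0.61). The cause was not tested.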
